A study of Mus musculus with 8 samples.

Results

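The immediate-early response genes examined here are 10 genes: Fos, Fosb, Jun, Junb, Egr1, Nr4a1, Nr4a3, Dusp1, Ier2 and Myc. They were chosen by name, and each was found by its Ensembl ID among the 48328 genes of the deposited expression table. The samples are tibialis anterior, the fast-twitch muscle at the front of the shin, taken from C57BL/6J mice at 24 months of age, and total RNA was sequenced. There were 4 K320E-skm libraries, from mice with a dominant mutant of the mitochondrial DNA helicase Twinkle in skeletal muscle, and 4 wild-type libraries, each group with 2 libraries labelled male and 2 labelled female. The driver that restricts the mutant protein to muscle is not given in the sources used here. Values are FPKM, fragments scaled to transcript length and to the mapped fragments of the library, 1 value per gene and library.

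Immediate-early genes are transcribed within minutes of a stimulus, without new protein synthesis, when kinases activate transcription factors that already sit on their promoters. FOS and JUN proteins pair to form AP-1, EGR1 and the NR4A nuclear receptors are transcription factors in their own right, DUSP1 is a phosphatase that switches off MAP kinases, and MYC pairs with MAX to drive growth genes. In skeletal muscle they are known for short bursts after contraction, adrenergic stimulation and injury. Their transcripts are also known to decay fast.

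Sequencing depth per library is unknown, since the table holds no counts. The lowest FPKM of long genes gave relative depths between 1.00 and 1.34, and FPKM summed to between 731824 and 858029 per library. Twnk, which encodes Twinkle, measured 3.82, 4.93, 5.06 and 4.66 FPKM in K320E-skm libraries 1 to 4, against 2.16, 2.40, 2.21 and 2.70 FPKM in wild-type libraries 1 to 4, and FPKM per gene do not separate the mutant transcript from the endogenous one. The library K320E-skm 4 is labelled male and went against that label, with Xist at 10.2 FPKM and Ddx3y at 0.0117 FPKM, against 0.0164 and 14.3 FPKM in the male-labelled K320E-skm 1. Comparisons that rest on K320E-skm 4 are therefore also given without it where the fold changes or the sex labels are concerned. Fibre markers were abundant, with 11 of 12 analysed. As deposited, they summed to between 25332 and 31915 FPKM in K320E-skm libraries, against 33067 to 38255 in wild-type ones. Acta1 was not analysed here.

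Promoter sequences are shown for Fos, Nr4a1, Nr4a3 and Dusp1. Fos and the NR4A genes were chosen because they correlated positively with each other across libraries, though no pair of members passed Benjamini-Hochberg adjustment. Dusp1 was chosen because it holds a complete cAMP response element, the site bound by the transcription factor CREB. RefSeq (GRCm38.p6) gave a window of 300 bases around the start of 7 of the 10 genes. The windows of Nr4a1 and Dusp1 sit at the start that RefSeq gives and lie inside the longer GENCODE gene spans given further on, so they are not at the outermost annotated start of those genes. The window of Nr4a3 contains the GENCODE start at 48045153, and the start that RefSeq gives lies farther inside the gene. Sequences of Egr1, Ier2 and Myc were not used here. Capitals mark the core site TGACG, read on either strand (CGTCA is the same site on the other strand), and the TATA box TATAAA.
Fos (chr12:85473640-85473939, plus strand): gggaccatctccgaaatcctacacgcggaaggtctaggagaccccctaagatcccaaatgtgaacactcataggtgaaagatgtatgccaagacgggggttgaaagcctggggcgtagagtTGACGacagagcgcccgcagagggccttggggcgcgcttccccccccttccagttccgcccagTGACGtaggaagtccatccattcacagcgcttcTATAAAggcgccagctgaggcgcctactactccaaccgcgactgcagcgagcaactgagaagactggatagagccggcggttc
Nr4a1 (chr15:101266596-101266895, plus strand): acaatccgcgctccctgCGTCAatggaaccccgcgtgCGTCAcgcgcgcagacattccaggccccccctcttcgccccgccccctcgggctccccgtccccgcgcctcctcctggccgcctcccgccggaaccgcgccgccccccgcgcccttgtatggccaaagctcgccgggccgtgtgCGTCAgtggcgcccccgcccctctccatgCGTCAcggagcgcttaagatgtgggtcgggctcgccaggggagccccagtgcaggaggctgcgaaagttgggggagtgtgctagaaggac
Nr4a3 (chr4:48045055-48045354, plus strand): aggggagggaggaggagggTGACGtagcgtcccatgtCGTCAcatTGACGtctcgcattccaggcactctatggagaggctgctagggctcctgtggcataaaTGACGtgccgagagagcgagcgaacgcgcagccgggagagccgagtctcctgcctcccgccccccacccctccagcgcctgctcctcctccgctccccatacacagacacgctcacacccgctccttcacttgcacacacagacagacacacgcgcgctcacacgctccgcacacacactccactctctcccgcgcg
Dusp1 (chr17:26508423-26508722, minus strand): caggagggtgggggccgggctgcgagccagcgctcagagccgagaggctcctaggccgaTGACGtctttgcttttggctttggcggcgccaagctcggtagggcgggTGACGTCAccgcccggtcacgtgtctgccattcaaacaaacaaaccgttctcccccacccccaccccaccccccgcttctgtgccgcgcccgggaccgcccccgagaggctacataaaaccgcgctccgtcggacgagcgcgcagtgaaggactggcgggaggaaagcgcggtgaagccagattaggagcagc
The core site was found in 6 of the 7 windows (Fos, Fosb, Junb, Nr4a1, Nr4a3 and Dusp1) and in 20.8% of all 32851 promoter windows. Nr4a1 and Nr4a3 each held 4 of them and Fos held 2. In Fos the second core site began at base 185 of the window and the TATA box at base 218. The complete element TGACGTCA, which contains the core site on both strands, was found in Dusp1 alone, at bases 108 to 115, and in 1.79% of all windows. TATAAA was found in Fos and Junb and in 13.6% of all windows. In Junb it began at base 251, at the start site that RefSeq gives and not upstream of it. The EGR site GCGNGGGCG was found in Fosb and Nr4a1 and in 5.55% of all windows, and the E-box CACGTG of MYC and MAX in Dusp1 and in 7.15%. Neither the AP-1 site TGANTCA nor the CArG core of the serum response element lay in any of the 7 windows, against 7.81% and 1.63% of all windows. Sites farther upstream than these windows of 300 bases were not searched, so these genes may hold such sites outside them. All these searches covered both strands. The windows of the 7 genes held between 58.7% and 72.3% G and C, and the median window 52.7%.

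K320E-skm and wild-type muscle were compared to ask whether the old muscle with mutant Twinkle held more or less of these transcripts. Nr4a3, Myc and Fos had the highest fold changes, and the difference in each was carried by some K320E-skm libraries and not by others. Jun, Junb, Egr1, Nr4a1, Dusp1 and Ier2 had group means whose higher value was at most 1.20 times the lower. No member passed the threshold, a Benjamini-Hochberg adjusted p under 0.05 over the 10521 genes that reached 1 FPKM in at least 4 libraries (limma on log2(FPKM + 1)). Of the 10 members, 9 passed that filter and Fosb did not. Among all tested genes 0.019% were called, 0.0095% higher and 0.0095% lower in K320E-skm muscle, with the same shares after median-ratio rescaling of the libraries. At an unadjusted p under 0.05, 2 of the 9 tested members, Nr4a3 and Myc, were higher and 0 lower. Among all tested genes, 1.07% were higher and 13.6% lower. Nr4a3 passed the filter mainly through K320E-skm libraries, which favoured the direction counted. Without the filter the limma unadjusted p was 0.0709 for Nr4a3 and 0.0384 for Myc. The median log2 fold change was 0.09 for the 9 members and −0.14 for all tested genes. Rescaling moved these medians to 0.26 and 0.00. Of the 9 members, 7 were above 0 and 2 below as deposited, beside 20.5% and 79.5% of all tested genes, and 9 were above 0 after rescaling, beside 50.6% above and 49.4% below. In 0 of the 10 members did the genotypes separate without overlap, beside 9.92% of all tested genes as deposited and 5.89% after rescaling (2.91% higher, 2.98% lower). The labels name separate samples without stating that each is a different animal, and the p-values cover only the spread among them, which may be technical.

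**Figure D1:**
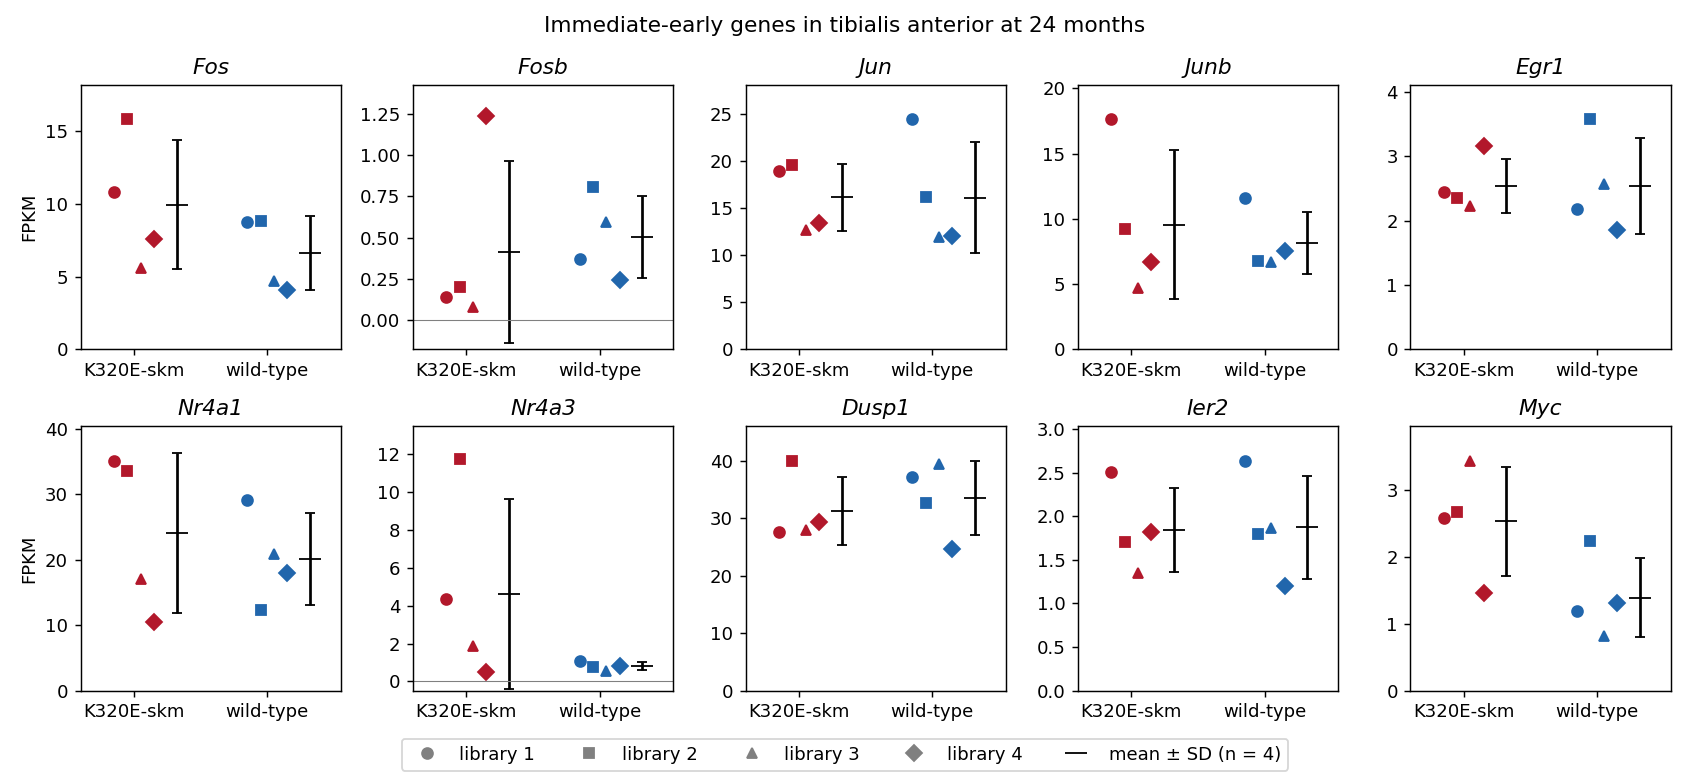
FPKM of the 10 genes in each library (vertical axis, linear, 1 scale per panel), K320E-skm left in red and wild-type right in blue, with symbols for the library number and bars for mean ± SD (n = 4). Nr4a3 is above all wild-type libraries in 3 K320E-skm libraries and below them in K320E-skm 4, while the groups overlap in every panel.

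Among the AP-1 genes, Fos (ENSMUSG00000021250, chromosome 12, 85473890 to 85477273, plus strand) measured 10.8, 15.8, 5.63 and 7.56 FPKM in K320E-skm libraries 1 to 4, against 8.77, 8.83, 4.74 and 4.10 FPKM in wild-type libraries 1 to 4. K320E-skm 1 and 2 exceeded the highest wild-type value, and K320E-skm 3 and 4 fell within the wild-type range. Group means were 9.95 ± 4.45 (K320E-skm muscle) and 6.61 ± 2.55 FPKM (wild-type muscle) (SD, n = 4 each), a ratio of 1.51 that was not larger than the spread between libraries. The log2 fold change was 0.50 (SE 0.31, limma adjusted p = 0.45), and the exact two-sided permutation p was 0.2.

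Jun (ENSMUSG00000052684, chromosome 4, 95049034 to 95052222, minus strand), the partner of FOS in the classical AP-1 dimer, measured 18.9, 19.6, 12.7 and 13.5 FPKM in K320E-skm libraries 1 to 4, against 24.4, 16.2, 11.9 and 12.01 FPKM in wild-type libraries 1 to 4. As deposited, the wild-type libraries held both the highest and the lowest value and so spanned all K320E-skm libraries. The highest was wild-type 1, which rescaling divides by 1.28. After rescaling the log2 fold change of Jun was 0.21 (SE 0.18, limma adjusted p = 0.737), against 0.04 as deposited. The exact permutation p was 0.314 after rescaling and 0.943 as deposited. Mean FPKM was 16.2 ± 3.58 in K320E-skm muscle against 16.1 ± 5.88 in wild-type muscle (SD, n = 4 each). Junos, an antisense gene with exons over those of Jun, reached 3.504 FPKM at most, and since the strand setting of the quantification is not given, its reads cannot be told apart from those of Jun.

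Junb (ENSMUSG00000052837, chromosome 8, 84974484 to 84978718, minus strand), another JUN protein and in muscle a factor known to support fibre size, measured 17.6, 9.23, 4.69 and 6.68 FPKM in K320E-skm libraries 1 to 4, against 11.6, 6.79, 6.69 and 7.52 FPKM in wild-type libraries 1 to 4. K320E-skm libraries held both the highest and the lowest value. Library 1 was the highest of each genotype. Group means were 9.55 ± 5.69 (K320E-skm muscle) and 8.16 ± 2.35 FPKM (wild-type muscle) (SD, n = 4 each). Exons of Prdx2, a gene on the opposite strand that reached 59.6 FPKM, overlap those of Junb.

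Fosb (ENSMUSG00000003545, chromosome 7, 19302696 to 19310051, minus strand), the FOS relative that is known to build up on repeated stimulation, measured 0.142, 0.201, 0.0777 and 1.24 FPKM in K320E-skm libraries 1 to 4, against 0.372, 0.810, 0.596 and 0.240 FPKM in wild-type libraries 1 to 4. It was the scarcest member. K320E-skm 4 was the highest of all libraries, and the other 3 of its genotype were lower than any wild-type value. Mean FPKM was 0.415 ± 0.553 in K320E-skm muscle against 0.505 ± 0.251 in wild-type muscle (SD, n = 4 each, exact permutation p = 0.629), and limma without a filter gave a log2 fold change of −0.14 (adjusted p = 0.83).

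Among the other transcription factors, Nr4a3 (ENSMUSG00000028341, chromosome 4, 48045153 to 48086447, plus strand), the nuclear receptor NOR-1, which is known to rise in muscle after exercise, measured 4.38, 11.7, 1.89 and 0.504 FPKM in K320E-skm libraries 1 to 4, against 1.07, 0.777, 0.571 and 0.802 FPKM in wild-type libraries 1 to 4. The wild-type libraries lay close together, 3 K320E-skm libraries lay above them, and K320E-skm 4 lay below them. Group means were 4.62 ± 4.998 (K320E-skm muscle) and 0.806 ± 0.206 FPKM (wild-type muscle) (SD, n = 4 each), a ratio of 5.74 with an SD in K320E-skm muscle larger than its mean. The log2 fold change was 1.21 (SE 0.52, limma unadjusted p = 0.0418, adjusted p = 0.331; exact permutation p = 0.143). Nr4a3 passed the filter with 3 K320E-skm libraries and 1 wild-type library at 1 FPKM or more, so the filter itself favoured a higher level in K320E-skm. With the tested genes held fixed, leaving out 1 library at a time gave log2 fold changes from 0.67, without K320E-skm 2, to 1.70, without K320E-skm 4, with limma adjusted p from 0.289 to 0.603.

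Nr4a1 (ENSMUSG00000023034, chromosome 15, 101254269 to 101274795, plus strand), the nuclear receptor NUR77 of the same family, measured 35.1, 33.6, 17.1 and 10.5 FPKM in K320E-skm libraries 1 to 4, against 29.2, 12.4, 20.9 and 17.9 FPKM in wild-type libraries 1 to 4. K320E-skm 1 and 2 were the highest libraries and K320E-skm 4 the lowest. Mean FPKM was 24.1 ± 12.2 in K320E-skm muscle against 20.1 ± 6.99 in wild-type muscle (SD, n = 4 each, exact permutation p = 0.8). Both NR4A genes were thus lowest of all 8 libraries in K320E-skm 4, where Fosb was highest.

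Myc (ENSMUSG00000022346, chromosome 15, 61985391 to 61990374, plus strand), which encodes a driver of ribosome production and growth, measured 2.59, 2.67, 3.45 and 1.46 FPKM in K320E-skm libraries 1 to 4, against 1.20, 2.24, 0.826 and 1.32 FPKM in wild-type libraries 1 to 4. In Myc, 3 K320E-skm values exceeded the highest wild-type value, and the groups overlapped through K320E-skm 4 and wild-type 2. Group means were 2.54 ± 0.816 (K320E-skm muscle) and 1.40 ± 0.598 FPKM (wild-type muscle) (SD, n = 4 each), a ratio of 1.82. The log2 fold change was 0.56 (SE 0.21, limma unadjusted p = 0.0232, adjusted p = 0.298; exact permutation p = 0.0571). This was the smallest permutation p of the 10 tests made, where 4 against 4 libraries allow 0.0286 at best.

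Egr1 (ENSMUSG00000038418, chromosome 18, 34859823 to 34864984, plus strand), a zinc finger factor, measured 2.45, 2.35, 2.22 and 3.15 FPKM in K320E-skm libraries 1 to 4, against 2.19, 3.57, 2.56 and 1.85 FPKM in wild-type libraries 1 to 4. The wild-type libraries spanned the whole range of the K320E-skm libraries. Mean FPKM was 2.54 ± 0.418 in K320E-skm muscle against 2.54 ± 0.744 in wild-type muscle (SD, n = 4 each), and the log2 fold change was 0.02 (SE 0.16).

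Dusp1 (ENSMUSG00000024190, chromosome 17, 26505590 to 26562128, minus strand), the phosphatase that removes the activating phosphates of p38 and JNK, measured 27.6, 40.1, 28.0 and 29.5 FPKM in K320E-skm libraries 1 to 4, against 37.2, 32.7, 39.5 and 24.8 FPKM in wild-type libraries 1 to 4. It was the most abundant member in the mean over all libraries. K320E-skm 2 stood apart from the other 3 K320E-skm libraries, and the wild-type libraries spanned the values of those 3. Group means were 31.3 ± 5.90 (K320E-skm muscle) and 33.5 ± 6.51 FPKM (wild-type muscle) (SD, n = 4 each), with a log2 fold change of −0.09 (SE 0.18) that was 0.084 (SE 0.16) after rescaling. Exons of Ergic1, on the opposite strand and at 11.1 FPKM at most, overlap the annotated gene.

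Ier2 (ENSMUSG00000053560, chromosome 8, 84661331 to 84662852, minus strand), a small nuclear protein gene, measured 2.50, 1.71, 1.35 and 1.82 FPKM in K320E-skm libraries 1 to 4, against 2.64, 1.79, 1.87 and 1.20 FPKM in wild-type libraries 1 to 4. Library 1 was again the highest of each genotype. Mean FPKM was 1.85 ± 0.481 in K320E-skm muscle against 1.87 ± 0.589 in wild-type muscle (SD, n = 4 each), with a log2 fold change of −0.01 (SE 0.17) that was 0.12 (SE 0.15) after rescaling. The log2 fold changes of Jun, Junb and Nr4a1 were 0.04 (SE 0.23), 0.09 (SE 0.32) and 0.16 (SE 0.37). For Jun, Junb, Egr1, Nr4a1, Dusp1 and Ier2 the limma adjusted p lay between 0.81 and 0.988 and the exact permutation p between 0.686 and 0.971, so none of these differences was larger than the spread between libraries.

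**Figure D2:**
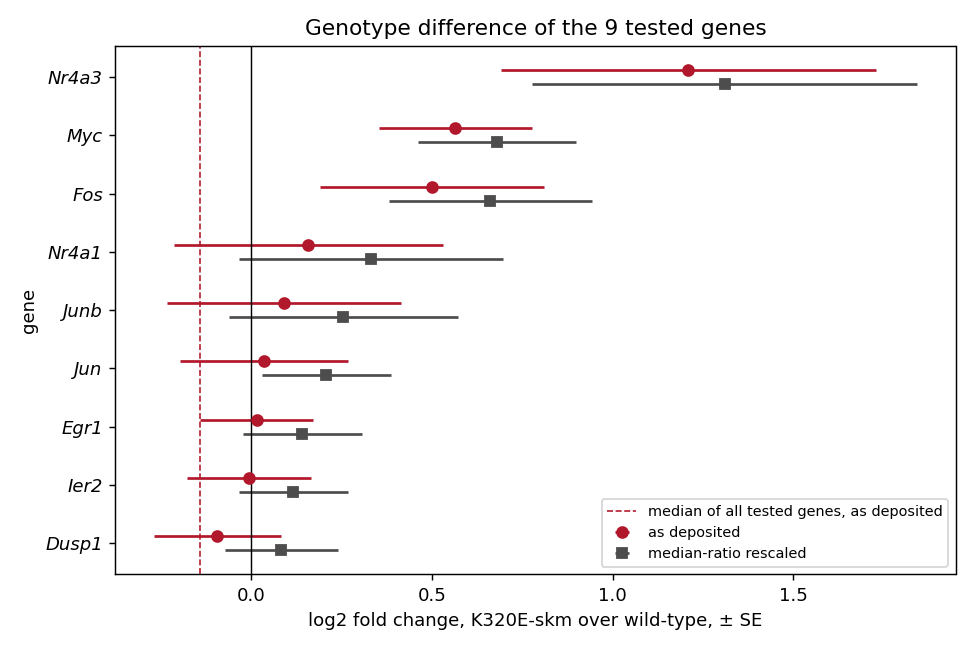
Log2 fold change of the 9 tested genes, K320E-skm over wild-type, on the scale of log2(FPKM + 1), with bars for the standard error, as deposited (red circles) and after median-ratio rescaling (grey squares). The dashed line is the median of all tested genes as deposited, −0.14, and Nr4a3, Myc and Fos are the genes whose estimates lie farthest above it.

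Without K320E-skm 4, Nr4a3 and Myc were higher and Fosb was lower in K320E-skm muscle with no overlap, so that 3 members were separated where 0 were with all 8 libraries. Over all tested genes, 1.28% lay higher and 13.9% lower without overlap in the same 7 libraries, and 0.333% and 9.59% in all 8. The log2 fold changes without that library were 1.70 for Nr4a3, 0.73 for Myc and 0.59 for Fos, with limma adjusted p of 0.292, 0.31 and 0.47. Without wild-type 2, Myc was the 1 member without overlap, beside 0.786% of tested genes that were higher in that way. Adjusted p over the alternatives in which the gene passed the filter ran from 0.284 to 0.577 for Nr4a3 (12 of 17), from 0.146 to 0.605 for Myc (16 of 17) and from 0.21 to 0.673 for Fos (17 of 17). After rescaling, 3 of the 9 tested members, Nr4a3, Myc and Fos, had an unadjusted p under 0.05, all higher. Among all tested genes, 5.19% were higher and 4.6% lower in that way. The filter favoured this direction for Nr4a3.

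The genotype difference was also compared between the sex labels, using the label of K320E-skm 4 as given. None of the 9 tested members had an interaction of genotype and sex label at an unadjusted p under 0.05, beside 2.27% of all tested genes, and the limma adjusted p of each was 0.999. The smallest unadjusted p was 0.0814, for Dusp1, with a mean of 28.6 FPKM in K320E-skm against 38.4 in wild-type libraries labelled male, and 34.0 in K320E-skm against 28.7 in wild-type libraries labelled female (n = 2 each). Without K320E-skm 4, which leaves 1 K320E-skm library labelled male and assumes that it varies like the others, none of the 9 had an unadjusted p under 0.05 either, beside 1.63% of all tested genes, and the p of Dusp1 was 0.111 (limma adjusted p = 0.9997).

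Levels differed between the members more than between the genotypes. On the FPKM scale, which is per length of transcript, Dusp1 at 32.4 in the mean over 8 libraries was above 91.0% of the 10521 tested genes, Nr4a1 at 22.1 above 87.1% and Jun at 16.1 above 82.7%. Junb at 8.86 and Fos at 8.28 stood next. Nr4a3 at 2.71, Egr1 at 2.54, Myc at 1.97 and Ier2 at 1.86 lay between 19.4% and 32.7% in the same ranking. Members were not tested against each other, so the order of such neighbours is a description. Fosb averaged 0.460 FPKM.

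Spread within genotypes, pooled over both, was above the median of all tested genes in each of the 9 tested members. The pooled SD of log2(FPKM + 1) was 0.94 for Nr4a3, 0.66 for Nr4a1, 0.57 for Junb and 0.54 for Fos, against a median of 0.21. For Nr4a3 it came mostly from K320E-skm muscle, with an SD of 4.998 FPKM against 0.206 FPKM in wild-type muscle. Nr4a3 exceeded 98.4% of tested genes in this SD, Nr4a1 97.1%, Junb 96.1%, Fos 95.6% and Jun 90.2%. Among genes within a factor of 1.25 of its own level, Nr4a3 exceeded 99.1% and Fos 96.0%. Egr1, at 0.24, exceeded 63.2% of tested genes and had the lowest SD of the 9 as deposited. After rescaling, 5 members (Fos, Junb, Nr4a1, Nr4a3 and Myc) were in the top 10% for spread, with Jun at 82.6% and Myc at 90.3%. Egr1 was then at 78.8%, above Dusp1 at 73.1% and Ier2 at 72.1%.

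**Figure D3:**
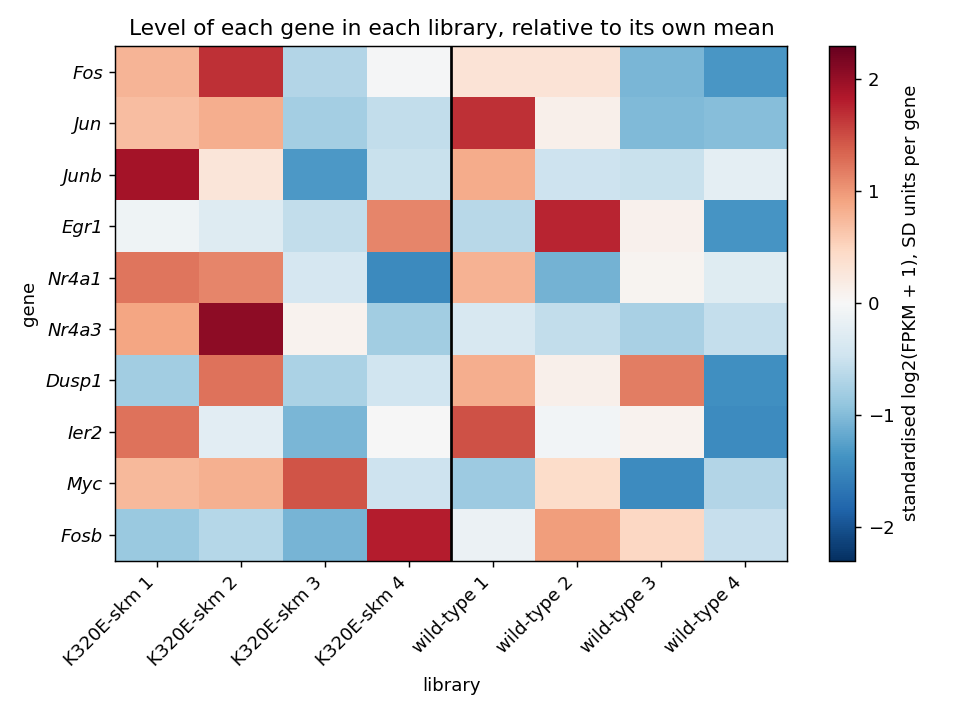
Standardised log2(FPKM + 1) of each gene (rows) in each library (columns, K320E-skm left of the line and wild-type right of it), in SD units around the gene's own mean over 8 libraries. K320E-skm 1 and 2 hold one of the 3 highest values in 7 genes each and wild-type 4 in none. Fosb and Egr1 have neither K320E-skm 1 nor K320E-skm 2 among their 3 highest, and Myc is highest in K320E-skm 3.

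Joint variation across libraries was then described. K320E-skm 1 and K320E-skm 2 each held one of the 3 highest values in 7 of the 10 members, and wild-type 1 did in 5. Wild-type 4 held none of them and was the lowest library for 4 members, Fos, Egr1, Dusp1 and Ier2. Averaged over the 9 tested members in SD units, the libraries stood at 0.74, 0.83, −0.44 and −0.35 in K320E-skm 1 to 4 and at 0.46, 0.06, −0.37 and −0.92 in wild-type 1 to 4. As deposited, each genotype had libraries on both sides of 0. After rescaling the values were 1.09, 0.82, −0.18 and −0.18 in K320E-skm 1 to 4 and −0.21, −0.10, −0.27 and −0.96 in wild-type 1 to 4, so that K320E-skm 1 and 2 were the libraries above 0 and wild-type 1 no longer was.

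Markers of several other cell types were, as deposited, high in some of the same libraries. The 8 markers of macrophages, all 8 of them tested and none at 0, summed to 69.4, 65.5, 52.3 and 24.5 FPKM in K320E-skm 1 to 4 and to 79.1, 51.7, 21.3 and 23.7 FPKM in wild-type 1 to 4. Both libraries with the highest members in K320E-skm muscle, and wild-type 1, had the highest sums of their genotype. Endothelial markers, 9 of 9 tested, summed to 60.2, 60.6, 49.5 and 45.8 FPKM in K320E-skm 1 to 4 and to 74.9, 54.5, 57.0 and 56.0 FPKM in wild-type 1 to 4. Fibroblast markers, 8 of 8 tested, summed to 345, 269, 241 and 241 FPKM in K320E-skm 1 to 4 and to 566, 348, 207 and 239 FPKM in wild-type 1 to 4. In both lists K320E-skm 1 and 2 and wild-type 1 were again the highest of their genotype as deposited, and no marker was at 0 in all libraries. Marker sums were not rescaled. Rescaling divides wild-type 1 by 1.28 and the other libraries by 0.905 to 1.04, so the order can depend on the scaling. Satellite cell markers, 3 of 6 tested, were highest in K320E-skm 2 at 26.6 FPKM and, in wild-type muscle, in wild-type 2 at 16.7 FPKM. Other lists followed other orders. The highest sums of each genotype lay in K320E-skm 4 (695 FPKM) and wild-type 1 (687) for smooth muscle and pericyte markers. They lay in K320E-skm 3 (278) and wild-type 3 (370) for red blood cells, and in K320E-skm 3 (2.01) and wild-type 1 (4.48) for lymphocytes. For adipocytes they lay in K320E-skm 1 (121) and wild-type 2 (202), and for Schwann cells in K320E-skm 1 (17.1) and wild-type 1 (31.5). The part of these cells in the levels of the members was not tested. In whole muscle, fewer cells of a type and less RNA per cell cannot be told apart. Of the 11 cell marker lists, fibre markers were the 1 list whose sums did not overlap between the genotypes as deposited. With the rescaling factors, 0.910 for K320E-skm 1 and 1.28 for wild-type 1, those sums would overlap. Among all tested genes, 9.92% did not overlap as deposited, a share of single genes and not of sums. Single fibre markers that were lower without overlap numbered 3 of 11, beside 9.59% of all tested genes. After rescaling they numbered 1 of 11, beside 2.98%. Neutrophil markers, 1 of 6 of which was tested and of which Ly6g was at 0 in every library, summed to 6.09, 7.14, 25.1 and 1.22 FPKM in K320E-skm 1 to 4 and to between 1.26 and 3.42 FPKM in wild-type libraries.

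In pairs, Fos and Jun had the highest correlation over the 8 libraries (Pearson r = 0.78, exact permutation p = 0.0243; Spearman rho = 0.83, exact permutation p = 0.0154). Without the 2 libraries farthest from the median of Fos, r was 0.77, and within genotypes it was 0.86. Fos and Nr4a3 had r = 0.77 (exact permutation p = 0.0233) and rho = 0.57 (exact permutation p = 0.151). Within genotypes r was 0.68, and it was 0.48 without the 2 farthest libraries, K320E-skm 2 and wild-type 4. Leaving out the farthest libraries narrows the range, so a lower r does not show that a relation rested on them. Nr4a1 and Nr4a3 had r = 0.72 (exact permutation p = 0.039) and rho = 0.74 (exact permutation p = 0.0458), with r = 0.64 without the 2 farthest. Fosb went with Egr1, at r = 0.78 (exact permutation p = 0.0243) and rho = 0.60 (exact permutation p = 0.132). Within genotypes r was 0.80, and in either genotype alone it was 0.98 (n = 4 each). Without K320E-skm 4 and wild-type 2 it was 0.29. With Nr4a1, Fosb had r = −0.71 (exact permutation p = 0.051) and rho = −0.57 (exact permutation p = 0.151), and r was −0.06 without the same 2 libraries. Of 45 pairs, 32 had r above 0. Of the 36 pairs of tested members, 29 did, beside 77.7% of all pairs of tested genes, a share near that of the members. An exact permutation p under 0.05 was reached by 8 of the 45 pairs. None passed after Benjamini-Hochberg adjustment over the 45 pairs, where the smallest value was 0.223.

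**Figure D4:**
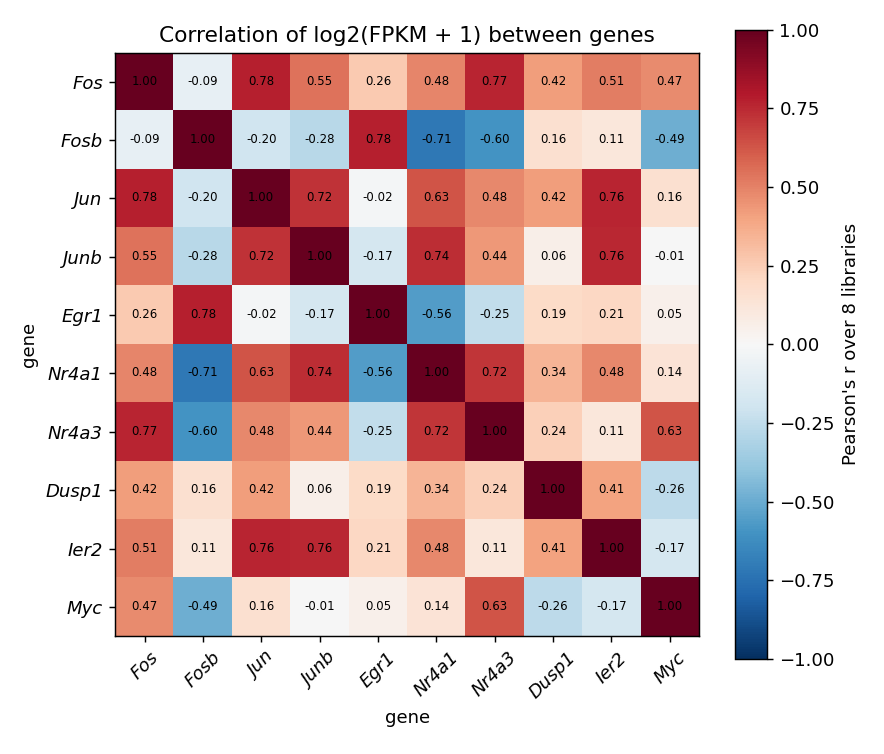
Pearson's r of log2(FPKM + 1) over 8 libraries for each pair of the 10 genes, from blue (−1) to red (1). Fos, Jun, Junb, Nr4a1, Nr4a3 and Ier2 have r above 0 with each other, from 0.11 for Nr4a3 and Ier2 to 0.78 for Fos and Jun. Of all pairs of tested genes, 77.7% have r above 0. Fosb and Egr1 are correlated with each other at 0.78.

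The background of such correlations depended on scaling. Over the 36 pairs of the 9 tested members the median r was 0.41 as deposited, beside 0.34 over all pairs of tested genes, which share the scale of each library. After median-ratio rescaling the medians were 0.35 for the members and −0.0012 for all pairs. Leaving out 1 library at a time gave members' medians between 0.24, without wild-type 4, and 0.45, without wild-type 3, on the rescaled values, with all pairs between −0.0012 and −0.0008. As deposited, the range was 0.21 to 0.41, the lowest again without wild-type 4, and all pairs ran from 0.11, without wild-type 1, to 0.41. At r of 0.8 or more there were 0 of the 36 pairs as deposited, beside 5.85% of all pairs, and 2 of the 36 after rescaling, beside 1.42%.

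The genes whose pattern was most like the mean of the 9 tested members, among 9597 other protein-coding genes and over 8 libraries, were Eif4a1, Xpnpep1, Jpt1, Pvr, Odc1, Sik1, Fcrls and Adarb1. Pearson's r with the mean ran from 0.96 for Eif4a1, an RNA helicase of translation initiation, to 0.93 for Adarb1, an RNA-editing enzyme. Odc1, the first enzyme of polyamine synthesis, measured 21.3, 22.5, 9.68 and 11.3 FPKM in K320E-skm libraries 1 to 4, against 18.5, 13.5, 12.02 and 11.2 FPKM in wild-type libraries 1 to 4 (r = 0.94, rho = 0.95). Sik1, a kinase that is itself induced by cAMP, measured 6.71, 9.34, 4.44 and 3.38 FPKM in K320E-skm libraries 1 to 4, against 6.97, 4.18, 4.08 and 2.83 FPKM in wild-type libraries 1 to 4 (r = 0.94, rho = 0.81). These 8 were ranked out of the 9597 genes on the values of 8 libraries as deposited, so r is a description without a test. The ranking was not repeated after rescaling. All pairs of tested genes had a median r of 0.34 as deposited and of −0.0012 after rescaling. An r of 0.9 or more was reached by 13 of the 9597 genes.

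Related genes of the same programme were counted from 8 lists, and none of their tested members passed the threshold in either direction. Among other AP-1, ATF and MAF genes, 6 of 8 were tested, with a median log2 fold change of 0.21 (0.36 after rescaling) and 4 above 0, beside 20.5% of all tested genes above 0. Atf3, a stress-induced partner of JUN, measured 9.43, 29.4, 7.72 and 2.65 FPKM in K320E-skm libraries 1 to 4, against 3.504, 6.82, 1.303 and 2.86 FPKM in wild-type libraries 1 to 4 (log2 fold change 1.25, SE 0.57, limma adjusted p = 0.342). As for Nr4a3, its highest value belonged to K320E-skm 2 and its lowest value in K320E-skm muscle to K320E-skm 4. Maff, a small MAF protein, had a mean of 2.03 ± 1.01 FPKM in K320E-skm muscle against 1.14 ± 0.256 in wild-type muscle (SD, n = 4 each, limma adjusted p = 0.373).

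Of the other EGR and NR4A genes and the EGR co-repressors, 1 of 6 was tested, Nab1, a co-repressor with a mean of 2.25 ± 0.274 FPKM in K320E-skm muscle against 3.01 ± 0.271 in wild-type muscle (SD, n = 4 each, limma adjusted p = 0.295). The log2 fold change of Nab1 was −0.30 as deposited and −0.17 after rescaling. Egr4 was listed at 0 in every library. Nr4a2, the third NR4A receptor, measured 1.34, 0.336, 0.206 and 0.208 FPKM in K320E-skm libraries 1 to 4, against 1.29, 0.471, 0.519 and 0.615 FPKM in wild-type libraries 1 to 4, and so did not follow the order of Nr4a3.

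The widest list, 46 other genes of the immediate-early programme, had 37 tested members with a median log2 fold change of −0.04 that turned to 0.10 after rescaling, 16 above 0 and 21 below, beside 20.5% and 79.5% of all tested genes. At an unadjusted p under 0.05, 2 of the 37 were higher and 1 lower, beside 1.07% and 13.6% of all tested genes. Bhlhe40, a repressor of the clock and of hypoxia responses, measured 14.1, 12.1, 8.93 and 12.1 FPKM in K320E-skm libraries 1 to 4, against 22.6, 15.5, 16.3 and 19.5 FPKM in wild-type libraries 1 to 4, with no overlap as deposited and an overlap after rescaling (log2 fold change −0.60, SE 0.16, limma adjusted p = 0.271). Cebpd, an inflammatory transcription factor, had a mean of 7.17 ± 1.90 FPKM in K320E-skm muscle against 4.77 ± 1.03 in wild-type muscle (SD, n = 4 each, limma adjusted p = 0.308).

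Other dual-specificity phosphatases, 6 of 10 tested, had a median of −0.19, and −0.06 after rescaling. Dusp10, which acts on p38 and JNK like Dusp1, measured 3.36, 2.74, 2.51 and 2.71 FPKM in K320E-skm libraries 1 to 4, against 8.03, 4.98, 4.59 and 4.02 FPKM in wild-type libraries 1 to 4, with no overlap (log2 fold change −0.71, SE 0.18, limma unadjusted p = 0.00244, adjusted p = 0.271). After rescaling its log2 fold change was −0.56. Dusp16 had a mean of 1.88 ± 0.419 FPKM in K320E-skm muscle against 2.46 ± 0.273 in wild-type muscle (SD, n = 4 each, limma adjusted p = 0.347).

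The kinases and transcription factors that drive immediate-early genes had 30 of 31 members tested, 28 of them below 0, beside 79.5% of all tested genes below 0. Their median log2 fold change was −0.22, and −0.07 after rescaling, where the median of all tested genes was 0.00. Of these, 8 of 30 had an unadjusted p under 0.05 and lower values, beside 13.6% of all tested genes, and 3 did after rescaling, beside 4.6%. Map2k4, which activates JNK and p38, had a mean of 10.8 ± 1.51 FPKM in K320E-skm muscle against 13.9 ± 0.757 in wild-type muscle (SD, n = 4 each, limma adjusted p = 0.289). Crebbp, the co-activator of CREB, had a mean of 4.78 ± 0.478 FPKM in K320E-skm muscle against 6.35 ± 0.902 in wild-type muscle (SD, n = 4 each, limma adjusted p = 0.292). Both were without overlap as deposited and overlapped after rescaling, where the log2 fold change of Map2k4 was −0.18, against −0.35 as deposited, and that of Crebbp −0.19, against −0.34.

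Partners and antagonists of MYC, 6 of 11 tested, all lay below 0 as deposited, beside 79.5% of all tested genes, with a median of −0.09 that was 0.06 after rescaling. Mxi1, an antagonist, had a mean of 3.30 ± 0.559 FPKM in K320E-skm muscle against 3.96 ± 0.490 in wild-type muscle, and Mga, a MAX partner, 7.67 ± 0.588 and 8.45 ± 1.38 FPKM (SD, n = 4 each). Genes activated by MYC, 18 of 18 tested, had a median of −0.02 that turned to 0.12 after rescaling, with 5 above 0 and 13 below, beside 20.5% and 79.5% of all tested genes. None had an unadjusted p under 0.05 as deposited, beside 1.07% of all tested genes higher and 13.6% lower, and 2 were higher after rescaling, beside 5.19%. Cad, the first enzyme of pyrimidine synthesis, had a mean of 1.82 ± 0.251 FPKM in K320E-skm muscle against 2.15 ± 0.382 in wild-type muscle, and Nop56, a factor of ribosome assembly, 9.38 ± 1.28 and 11.0 ± 2.29 FPKM (SD, n = 4 each). Genes linked to NR4A receptors in muscle, 14 of 14 tested, had a median of 0.02 (0.20 after rescaling), with 7 above 0 and 7 below, beside 20.5% and 79.5% of all tested genes. Ucp3, a mitochondrial carrier, had a mean of 58.0 ± 21.0 FPKM in K320E-skm muscle against 31.9 ± 8.82 in wild-type muscle (SD, n = 4 each, limma adjusted p = 0.289), and Pdk4, which inhibits pyruvate dehydrogenase, 107 ± 48.6 against 58.2 ± 27.7 FPKM (limma adjusted p = 0.354). Both were highest in K320E-skm 3, at 82.0 and 162 FPKM, whereas Nr4a3 was highest in K320E-skm 2.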

How the data were processed

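Per the labels, total RNA of the lower tibialis anterior was extracted with Trizol and made into stranded libraries. The authors deposited FPKM per gene in 1 table of 8 libraries. The submitters' processing notes name mm10, TopHat2 2.0.10, Cufflinks 2.1.1 and CASAVA. The sources used here give no annotation release, strand setting or filter. FPKM are shares of a library, so abundant transcripts of one kind lower the rest. No 2 libraries were identical, and 0 columns were left unmapped.

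Symbols and coordinates came from GENCODE M21 (GRCm38, the build of mm10), which matched 47950 of 48328 IDs. Log2(FPKM + 1) was tested with limma 3.58.1 in R 4.3.3 (genotype as the term, empirical Bayes with trend, two-sided, Benjamini-Hochberg over 10521 genes with 1 FPKM or more in at least 4 libraries, 6 residual degrees of freedom). The pseudocount makes fold changes of low genes smaller. The fit was tested on simulated data. Sex was left out as a term because 1 label went against its transcripts. Single values were compared by exact permutation over 70 assignments, correlations by all 40320 pairings. Alternatives were a pseudocount of 0.1, no filter, 5 FPKM, median-ratio rescaling, quantile normalization, the replicate number as a block, a term for the sex label, robust empirical Bayes, array weights and leaving out each library; leaving out libraries after rescaling, leaving out libraries for Nr4a3 with the tested genes held fixed, and the interaction without K320E-skm 4 were added after the values were seen.

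Members and lists were chosen with earlier results of these data known. Named were all members, the 2 tested genes with the smallest p of each related list (none passed), and the 8 protein-coding genes most correlated with the members' mean; Odc1 and Sik1 among these, Egr4, Nr4a2 and the genes named for checks were picked for values after these were seen. Python 3.11.15, pandas 2.3.3 and matplotlib 3.10.9 were used.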

Additional observations from a re-analysis of the deposited data

Results flagged for a closer look

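Of 20 groups of 4 libraries (10 genes in each genotype), 3 held a library far from the other 3, where chance gives about 1 in 20. For Fosb in K320E-skm muscle, the gap of K320E-skm 4 to its nearest neighbour was 0.894 of the group's range. For Dusp1 in K320E-skm muscle, K320E-skm 2 stood above the other 3 with a gap of 0.854 of the range. For Junb in wild-type muscle, wild-type 1 stood above the other 3 with a gap of 0.832 of the range.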

How the results depend on the processing

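In the 145 fits of members over 17 alternatives none passed the threshold, adjusted p was 0.146 or more, and 124 fold changes kept their sign. A further 8 could not be fitted because the gene failed the filter: Egr1, Ier2, Myc and Nr4a3 at 5 FPKM, and Nr4a3 without K320E-skm 1, 2 or 3 or wild-type 1. The log2 fold changes of Dusp1 and Ier2 turned to 0.084 and 0.12 with median-ratio rescaling (exact permutation p = 0.629 and 0.543), 0.071 and 0.12 with quantile normalization and 0.060 and 0.14 with array weights. Leaving out 1 library gave ranges of −0.080 to 0.25 for Jun, −0.23 to 0.34 for Junb, −0.081 to 0.15 for Egr1, −0.067 to 0.49 for Nr4a1 and −0.13 to 0.11 for Ier2, which crossed 0, and of 0.26 to 0.71 for Fos and 0.44 to 0.73 for Myc, which did not. For Nr4a3 the 4 such fits gave 1.14 to 1.70, and all 8, with the tested genes held fixed (added after the values were seen), 0.67 to 1.70. The cause of these changes of sign was not tested. Over all genes, 2 were called, and 1 with no filter, with the filter of 5 FPKM or with robust empirical Bayes; leaving out 1 library gave 0 to 3. The interaction with the sex label was called in 2 genes, and in 4 without K320E-skm 4 (added likewise). Members separated without overlap numbered 0 to 3 when 1 library was left out. The median correlation of tested members ran from 0.21 to 0.41 without 1 library, and from 0.24 to 0.45 after rescaling. The replicate numbers paired the libraries weakly at most: deviations of same-numbered libraries correlated at 0.16, 0.02, 0.04 and 0.04. The wild-type library that correlated best was the same-numbered one for K320E-skm 1, 2 and 3, and wild-type 2 for K320E-skm 4. With the number as a block, 2 genes were called and 0 members, as without it. Depth is unknown, so the counting error of scarce members such as Fosb cannot be given.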
